A study of Mus musculus with 10 samples.

Results

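The pyruvate dehydrogenase complex and the enzymes that switch it off and on were followed at the mRNA level in cells taken from mouse hearts with CD31 beads. The group held 10 of the 46983 genes in the count table, namely the kinases Pdk1, Pdk2, Pdk3 and Pdk4, the phosphatases Pdp1 and Pdp2, and the core subunit genes Pdha1, Pdhb, Dlat and Pdhx. These genes were chosen by name as 1 pathway, with the difference between the diets already known. Their differences between the diets are therefore given as a description with no test.

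Pyruvate dehydrogenase is a large complex in the mitochondrial matrix that turns pyruvate, the end product of glycolysis, into acetyl-CoA for the tricarboxylic acid cycle. The 4 kinases phosphorylate its alpha subunit and shut it off, and the 2 phosphatases remove the phosphate and restore its activity. Tissues that burn fatty acids or ketone bodies, the heart among them, are known to hold back pyruvate oxidation in this way, and Pdk4 is the kinase whose transcript is best known to respond to fasting and dietary fat.

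Wild-type C57BL/6J mice, male and 8 weeks old, received either a control diet (D12359, with 11.6% of its energy as fat) or a ketogenic diet (D17011501, with 89.5% as fat and very little carbohydrate) for 14 days. There were 5 mice on each diet and 1 library per mouse. Hearts were digested, and the cells that bound magnetic beads coated with an antibody to CD31, a surface protein of endothelial cells (ECs), were kept. The libraries were amplified as full-length cDNA from 10 ng of RNA, and 10885154 to 12710861 reads per mouse were counted on genes.

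The 8 endothelial marker genes, with Pecam1, which encodes CD31, among them, summed to 48183 to 50965 normalized counts on the control diet and 47464 to 53441 on the ketogenic diet. A normalized count is the read count scaled by edgeR's TMM factors to the mean library size. The raw counts of 5 of the 8, Pecam1 (6770 to 7020) and Cdh5 (7356 to 7571) among them, ranged less over the 10 mice than the library sizes did (highest over lowest 1.17), and Cdh5 used up to 95.0% of its possible read start positions. These sums therefore show that endothelial transcripts were abundant and do not compare the diets. Transcripts of other heart cells were present as well. The 7 smooth muscle and pericyte markers summed to 27031 to 30201 over all mice, and 3 of them (Acta2, Tagln and Rgs5) had such narrow raw counts too. The 10 cardiomyocyte markers summed to 5984 to 8022 and 6938 to 9745 in the same order, and 10 of the 10 had a log2 fold change above 0 (median 0.34, from 0.10 for Tnnt2 to 0.77 for Ryr2), with 0 past an adjusted p-value of 0.05 in edgeR, 7 with an unadjusted p-value under 0.05 and 4 called by DESeq2 (Myl2, Myl3, Actc1 and Mb). None of the 6 macrophage markers had a log2 fold change above 0 (median −0.49). Their sum was 7099 in control mouse 1, where Adgre1 had 2198 reads, and 2169 to 3492 in the other control mice, against 1829 to 3388 on the ketogenic diet. Of the 5 lymphocyte markers, 1, the B cell gene Cd79a, fell by 0.46 on the log2 scale (adjusted p = 0.0221 in edgeR), and DESeq2 called 3. The defining adipocyte markers Adipoq, Plin1, Cidec and Lep each had a mouse at 0, and together they summed to at most 16.7. Of the macrophage and fibroblast markers 0 were called by edgeR or DESeq2, with 4 and 0 unadjusted p-values under 0.05 in edgeR. There were also 0 calls by either tool among the endothelial, smooth muscle and pericyte, and erythroid markers (1, 0 and 0 unadjusted p-values under 0.05 in edgeR), but 5 of 8, 3 of 7 and 4 of 5 of these had raw counts that ranged less than the library sizes, so that nothing is read from this. None of the 10 genes of the group, and none of the 10 cardiomyocyte markers, had so narrow a range. Pdhb came close to it, with a highest over lowest count of 1.173 against 1.168 for the libraries. The cardiomyocyte markers Actc1 and Mb used up to 51.6% and 43.1% of their possible read start positions. Fewer cells of a type and less RNA per cell cannot be told apart in such bulk libraries.

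Pdk4 was the gene of the group that stood apart between the diets. On the control diet its normalized count was 483, 641, 693, 555 and 615 in mice 1 to 5, and on the ketogenic diet it was 1474, 1439.6, 1654, 1622 and 1903. The diets did not overlap. The means were 597 ± 80.9 (SD, n = 5) and 1618 ± 184 (SD, n = 5), a log2 fold change of 1.44 with a standard error of 0.10. This is a 2.71-fold difference, with 2.53 and 2.90 at 1 standard error to either side. Among the 15949 genes tested, 18 had a higher log2 fold change. When a score of the cardiomyocyte markers in each mouse was added to the fit as a covariate, the value for Pdk4 was 1.34. The score itself differed between the diets, from −1.37 to 0.33 (median −0.57) on the control diet and from −0.54 to 1.48 (median 0.67) on the ketogenic diet. The fit with this covariate therefore separates the score from the diet only in part.

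**Figure D1:**
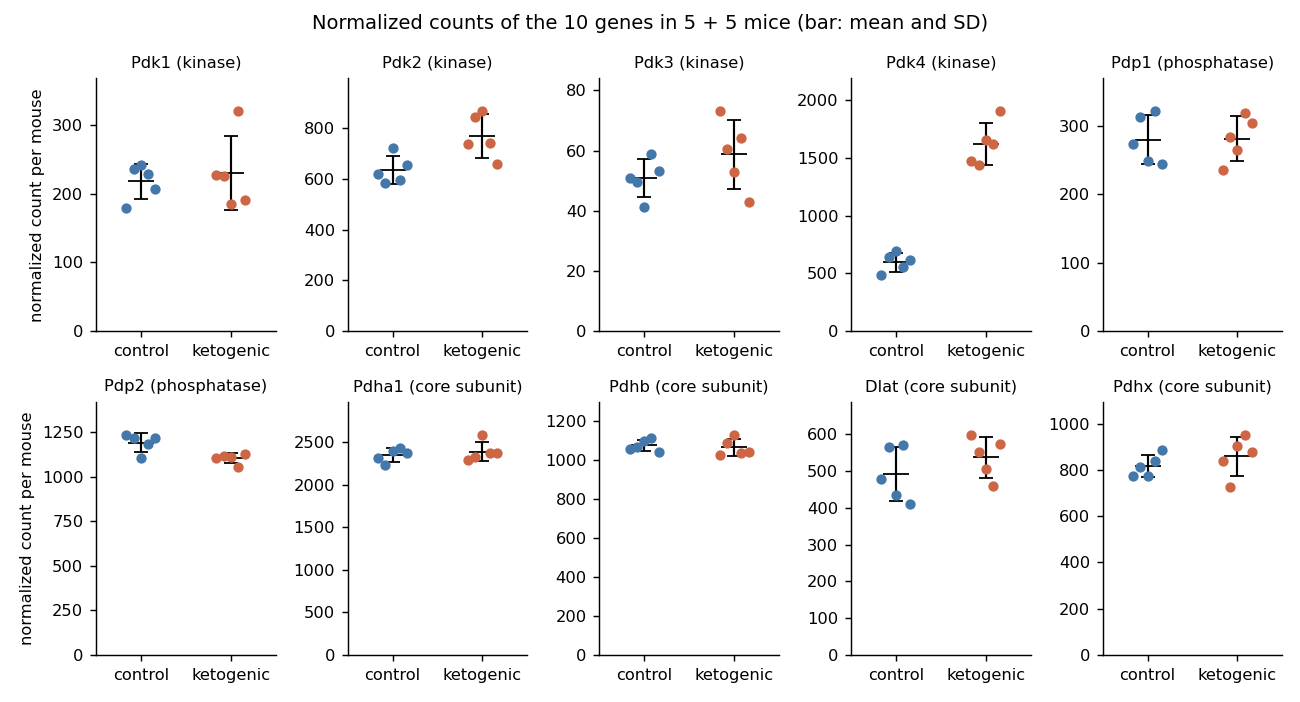
Normalized read counts (vertical axes, each from 0) of the 10 genes, 1 panel per gene, in the 5 mice on the control diet (blue) and the 5 on the ketogenic diet (orange), with the mean and SD as bars. The points of Pdk4 on the ketogenic diet, 1439.6 to 1903, lie apart from its points on the control diet, 483 to 693, and the points of the other 9 genes overlap between the diets.

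Pdk4 (ENSMUSG00000019577.6) lies on the minus strand of chromosome 6 from 5483351 to 5496309 in GRCm38. Since Pdk4 was the gene with the large difference, the bases just before its start are shown. They run from chr6:5496310-5496528 on the minus strand of GRCm38.p6 (RefSeq), up to the first base of the gene in GENCODE M21, and the capitals mark a CCAAT box read on the other strand, whose first base lies 100 bases before the start:

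Pdk4 upstream: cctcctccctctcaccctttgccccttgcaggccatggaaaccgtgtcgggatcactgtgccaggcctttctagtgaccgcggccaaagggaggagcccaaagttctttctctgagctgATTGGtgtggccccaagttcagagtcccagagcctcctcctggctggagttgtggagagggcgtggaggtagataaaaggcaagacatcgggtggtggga

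Windows of 250 bases before the RefSeq start were found for 9 of the 10 genes and searched on both strands for 7 strings of letters, none of which contains another. Pdk1 and Pdk2 each had a second window, at another RefSeq start, and a gene was counted if either window held the letters. The percentages are shares of single windows. CCAAT was present before Pdk4, Pdk2, Pdk3, Pdp2 and Pdhb, that is 5 of the 9, and in 33.8% of the 32851 windows of all genes. The GC box GGGCGG was present before Pdk1, Pdk3, Pdp2, Pdhb, Dlat and Pdhx, 6 of the 9, and in 32.7% of all windows. The E-box CACGTG was found before Pdk2 and Pdp2 (6.02% of all windows). The glucocorticoid receptor hexamer AGAACA (16.1%) was found only in the second window of Pdk1. That window, within chromosome 2 from 71874654 to 71874953, lies inside the gene as placed by GENCODE M21, and the window at the gene's start held none. The FOXO string GTAAACA (3.17% of all windows), the TATA box TATAAA (12.4%) and the nuclear receptor hexamer AGGTCA (14.0%) were found before 0 of the 9. A match is a description of the letters, and its absence says only that these letters are not in this window.

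Of the 15949 genes tested in edgeR's fit, 1.34% were called at an adjusted p-value under 0.05 in either direction and 0.809% as higher on the ketogenic diet. In the group 10 of 10 genes were tested and 1 was called, Pdk4. The normalized counts of the diets did not overlap for 4.34% of all tested genes, and for 2.4% with the ketogenic diet higher, against 1 of the 10 genes, again Pdk4. Because the genes were chosen with this contrast known, nothing is read from these counts. The median log2 fold change was 0.07 over the group and −0.01 over all tested genes, of which 48.6% lay above 0. For the 9 genes other than Pdk4 the log2 fold change lay between −0.11 and 0.27.

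Pdk2, the most widely expressed kinase of the family, had the next largest value. Its normalized counts were 619, 584, 723, 597 and 656 on the control diet and 736, 845, 865, 739.6 and 658 on the ketogenic diet. Of the 5 mice on the ketogenic diet, 4 lay above the highest control mouse, and mouse 5 lay among the controls. The log2 fold change was 0.27 with a standard error of 0.0852, a 1.21-fold difference. It was 0.11 with the cardiomyocyte covariate, and with each mouse left out in turn it lay between 0.23 and 0.33. DESeq2, unlike edgeR, placed Pdk2 past an adjusted p-value of 0.05. Nothing is read from this call, since the genes were chosen with this contrast known. Pdk2 (chromosome 11 from 95026258 to 95041354, minus strand) overlaps the antisense gene Gm11513, and the libraries do not record the strand.

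Pdk1, a kinase known as a target of hypoxia signalling, showed no such separation. Pdk1 (chromosome 2 from 71873224 to 71903858) had 179, 235, 241, 228 and 207 normalized counts on the control diet and 227, 226, 186, 319.7 and 191 on the ketogenic diet. Mouse 4 on the ketogenic diet was the highest of all 10 mice, and 1 of the 5 lay above the control median. The log2 fold change was 0.07 with a standard error of 0.148, and it was below 0 in 1 of 21 other settings, with −0.07 as its lowest value when a mouse was left out.

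Pdk3, an X-linked kinase (chromosome X from 93764607 to 93832201), had the fewest reads of the group, 40 to 74 per mouse. Its normalized counts were 50.8, 49.6, 41.4, 59.0 and 53.3 on the control diet and 73.0, 60.6, 53.0, 64.1 and 42.8 on the ketogenic diet. Of the mice on the ketogenic diet, 3 lay above the highest control mouse. The log2 fold change was 0.21 with a standard error of 0.169. Its coefficient of variation was 12.5% on the control diet and 19.5% on the ketogenic diet, where counting error alone gives 14.2% and 12.9%.

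The counts of both phosphatases overlapped between the diets. Pdp2 (chromosome 8 from 104591451 to 104599026) had 1234, 1218, 1103, 1182 and 1220.0 normalized counts on the control diet and 1108, 1118, 1114, 1054 and 1127 on the ketogenic diet. No mouse on the ketogenic diet reached the control median of 1218, and mouse 4 lay below the lowest control mouse. Its log2 fold change of −0.11 (standard error 0.0429) was below 0 in 21 of 21 other settings and was −0.06 with the cardiomyocyte score as a covariate. Pdp1 (chromosome 4 from 11958184 to 11966452), the calcium-stimulated isoform, had 273, 313, 248, 321 and 244 normalized counts on the control diet and 236, 283, 265, 319 and 304 on the ketogenic diet. The values of Pdp1 were mixed between the diets (log2 fold change 0.01, standard error 0.109), and their sign changed in 6 of 21 other settings.

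**Figure D2:**
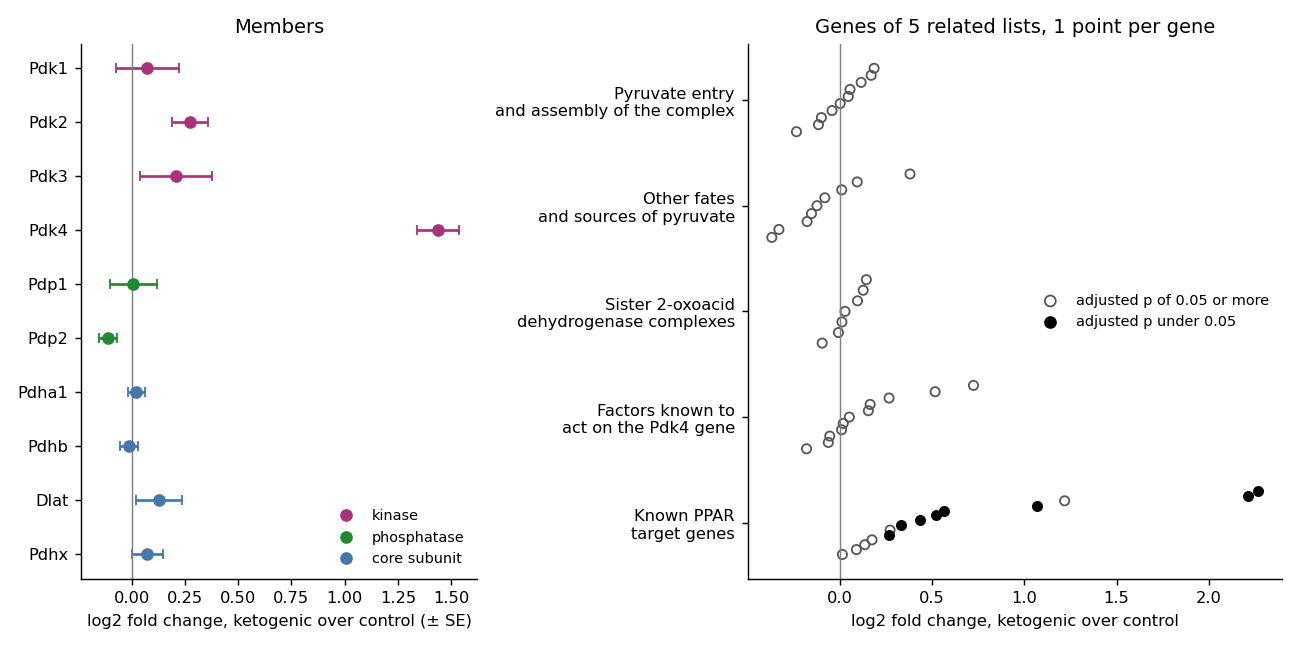
Log2 fold change, ketogenic over control diet (horizontal axes), with bars of 1 standard error for the 10 genes on the left and as 1 point per gene for 5 lists of related genes on the right, where filled points have an adjusted p-value under 0.05. Pdk4 at 1.44 lies far to the right of the other 9 genes, and the 8 filled points all belong to the known PPAR targets. The lists were chosen with earlier results of these data known.

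The core subunit genes overlapped between the diets. Pdha1 and Pdhb encode the alpha and beta subunits of the dehydrogenase itself. Pdha1 (chromosome X from 160122209 to 160138413) had 2317, 2225, 2397, 2427 and 2376 normalized counts on the control diet and 2289, 2319.9, 2580.1, 2370.3 and 2367 on the ketogenic diet. Apart from mouse 3 on the ketogenic diet these values lay within the range of the control mice, and the log2 fold change was 0.02, with a standard error of 0.0397. Pdha1 overlaps Map3k15 on the other strand.

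For Pdhb (chromosome 14 from 8165996 to 8173025) the normalized counts were 1056, 1063, 1094, 1109.6 and 1042 on the control diet and 1026, 1087, 1126, 1035 and 1041 on the ketogenic diet, and the diets overlapped. Its log2 fold change was −0.01 with a standard error of 0.0421. The coefficient of variation of Pdhb on the control diet, 2.61%, was below the 3.09% that counting error alone gives, and on the ketogenic diet, 3.98%, it was above the 3.03% from counting.

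Dlat encodes the acetyltransferase that passes the acetyl group on to coenzyme A, and its coefficient of variation on the control diet, 15.01%, was the highest of the 4 core genes. Dlat (chromosome 9 from 50634633 to 50659780) had 478, 566, 436, 572 and 410.4 normalized counts on the control diet and 598, 553, 505, 459.7 and 574 on the ketogenic diet. Both diets spread over much the same range, and the log2 fold change was 0.13 (standard error 0.107), or 0.34 with the cardiomyocyte score as a covariate. Pdhx (chromosome 2 from 103021075 to 103073513), which encodes the protein that anchors the shared E3 subunit to the core, had 772, 810.4, 774, 839 and 886 on the control diet and 837, 726, 902, 950.5 and 878 on the ketogenic diet. These overlapped too, with a log2 difference of 0.07 and a standard error of 0.0722. Over 21 other settings the log2 fold changes of Pdk2, Pdk3, Pdk4, Dlat and Pdhx stayed above 0.

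Levels of different genes were compared on the authors' RPKM, reads scaled to the length of the gene and to the depth of the library, since counts alone grow with gene length. On the control diet the order of mean RPKM was Pdhb (61.7 ± 1.47, SD, n = 5), Pdha1 (43.0 ± 1.34), Pdp2 (29.2 ± 1.30), Pdhx (16.3 ± 0.963), Pdk4 (12.2 ± 1.69), Pdk2 (12.1 ± 1.08), Dlat (6.77 ± 1.01), Pdp1 (2.65 ± 0.333), Pdk1 (1.52 ± 0.179) and Pdk3 (1.39 ± 0.170). The neighbours Pdk4 and Pdk2 overlapped on the control diet, with Pdk4 above Pdk2 in 2 of 5 mice, and so did Pdk1 and Pdk3. The ranges of the other neighbours on the control diet were apart. On the ketogenic diet Pdk4 had a mean of 33.2 ± 3.82 RPKM (SD, n = 5). There it lay above Pdk2 in 5 of 5 mice, and Pdhx, which was above Pdk4 in 5 of 5 control mice, was above it in 0 of 5. The other 9 genes had mean RPKM on the ketogenic diet of 61.7 for Pdhb, 44.1 for Pdha1, 27.3 for Pdp2, 17.3 for Pdhx, 14.8 for Pdk2, 7.46 for Dlat, 2.69 for Pdp1, 1.62 for Pdk3 and 1.61 for Pdk1.

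**Figure D3:**
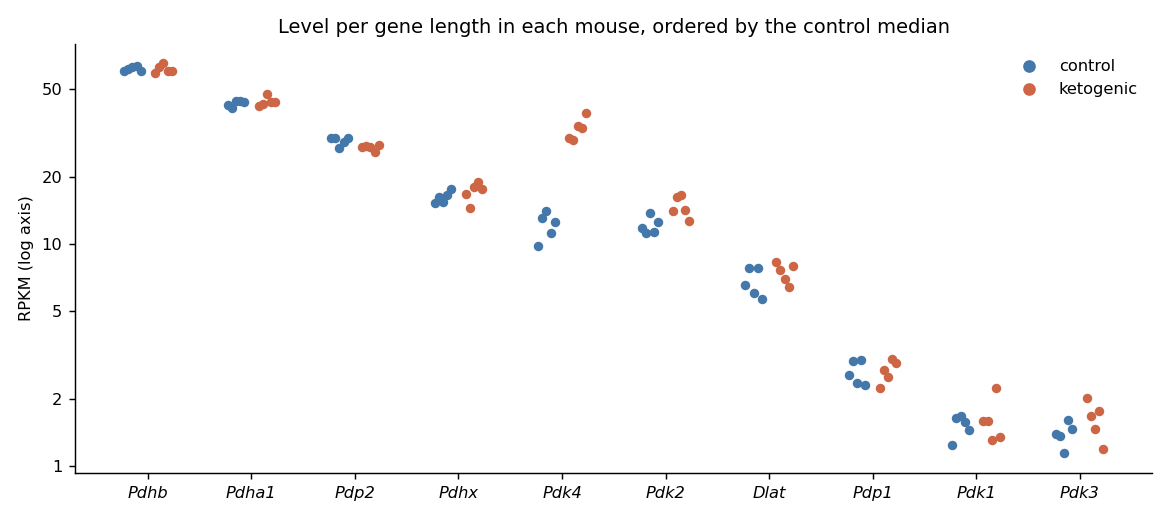
Level of each gene in RPKM (vertical log axis) in the 5 mice on the control diet (blue) and the 5 on the ketogenic diet (orange), with genes ordered from left to right by the control median. The level spans from about 61.7 RPKM for Pdhb to 1.39 for Pdk3 on the control diet, and on the ketogenic diet the points of Pdk4 lie above those of Pdhx.

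Order of level within a class was tested over the 10 mice for pairs without Pdk4, whose difference between the diets was known when the genes were chosen. In a two-sided exact sign-flip permutation test of the log2 ratio of RPKM in each mouse, 9 of these 10 pairs passed an adjusted p-value of 0.05, adjusted over 13 pairs since the 3 with Pdk4 were computed as well. For the 9 the same gene was higher in 10 of 10 mice, with p = 0.00195 in the exact test, the smallest it can give, and an adjusted p-value of 0.00231. Among the kinases, Pdk2 was 8.63-fold above Pdk1 and 8.97-fold above Pdk3. Pdk1 and Pdk3 did not separate (log2 ratio 0.06 ± 0.28, SD, n = 10, exact permutation p = 0.543). Of the phosphatases, Pdp2 was 10.6-fold above Pdp1. In the core, Pdhb was 1.42-fold above Pdha1, Pdha1 was 2.60-fold above Pdhx, and Pdhx was 2.37-fold above Dlat.

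The order of Pdk2 and Pdk4 was not the same on both diets. Their log2 ratio in RPKM, Pdk2 over Pdk4, was 0.01 ± 0.17 (SD, n = 5) on the control diet and −1.17 ± 0.29 (SD, n = 5) on the ketogenic diet. Pdk4 lay above Pdk1 and Pdk3 in 10 of 10 mice, by 7.98-fold and 8.71-fold on the control diet. These 3 pairs are given as a description with no test.

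The gene lengths behind the RPKM bear on this order. The authors' length was 2.37 times that of the principal GENCODE transcript for Pdk1, 2.15 times for Pdp1, 1.99 times for Pdk2, 1.2 times for Pdk4 and 0.612 times for Pdp2. With the length of the principal transcript in its place, Pdha1 lay above Pdhb by 0.23 on the log2 scale, in 10 of 10 mice (adjusted exact permutation p = 0.00212). Pdk1 lay above Pdk3 by 0.74 (adjusted exact permutation p = 0.00212), and Pdp2 above Pdp1 by 3.03-fold. The test therefore shows that a ratio repeated over the mice at the lengths used, and it does not settle which lengths are right. Pdk2 over Pdk4 became 0.73 ± 0.17 (SD, n = 5) on the log2 scale on the control diet, where Pdk2 was then 1.66-fold higher, and −0.44 ± 0.29 on the ketogenic diet. The other pairs of the core and the kinases kept their order.

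**Figure D4:**
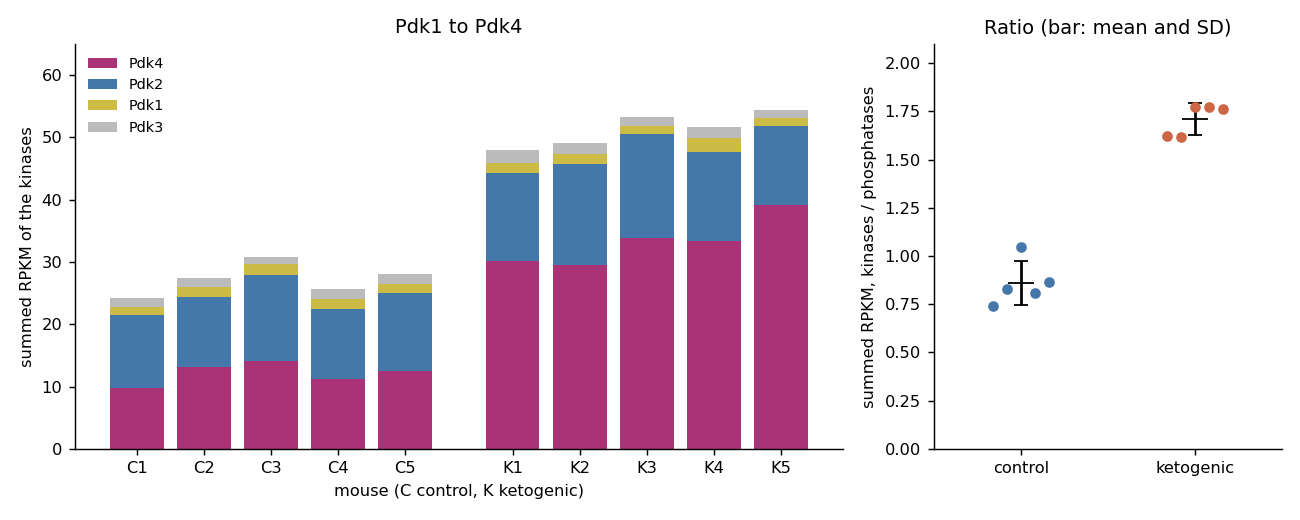
Left, summed RPKM of the 4 kinases in each mouse (C, control diet; K, ketogenic diet), stacked by gene. Right, summed RPKM of the kinases over that of the phosphatases in each mouse, with mean and SD as bars. The stacks reach 24.2 to 30.8 RPKM on the control diet and 47.9 to 54.4 on the ketogenic diet, and Pdk4 makes up most of the difference.

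The makeup of the kinase transcripts followed from the values above. Pdk4 made up 40.5%, 47.9%, 45.9%, 43.6% and 44.8% of the summed kinase RPKM in control mice 1 to 5 and 63.0%, 60.2%, 63.6%, 64.6% and 72.0% in mice 1 to 5 on the ketogenic diet. All 5 shares on the ketogenic diet lay above every control share. Pdk2 made up 44.7% ± 2.73 (SD, n = 5) on the control diet and 29.0% ± 3.74 on the ketogenic diet, although its own mean RPKM was 12.1 on the control diet and 14.8 on the ketogenic diet. The summed RPKM of Pdk1, Pdk2 and Pdk3 was 15.1 ± 1.01 on the control diet and 18.04 ± 1.74 on the ketogenic diet. With the principal transcript lengths, the mean share of Pdk4 was 32.8% and 52.8%.

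Kinase RPKM relative to phosphatase RPKM was 0.739, 0.829, 1.04, 0.809 and 0.867 in control mice 1 to 5 and 1.62, 1.62, 1.77, 1.77 and 1.76 on the ketogenic diet, with no overlap. The summed phosphatase RPKM was 31.9 ± 1.42 (SD, n = 5) and 29.98 ± 0.658, and the summed RPKM of the 4 core genes 128 ± 2.68 and 130 ± 4.42, on the control and the ketogenic diet. The mean ratio of kinases to phosphatases, 0.858 and 1.71 with the authors' lengths, was 1.90 and 3.37 with the principal transcript lengths and 1.03 and 1.93 on counts with no division by length. These are levels of mRNA, and the activity and phosphorylation of the complex were not measured.

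In 5 further lists of genes around the complex, each tested in the same fit over all genes, calls were found in 1. All 5 lists were chosen with earlier results of these data known. The first holds the genes for pyruvate entry into mitochondria and for assembly of the complex, the carrier genes Mpc1 and Mpc2 and the lipoic acid genes among them. Of its 10 genes, 10 were tested and 0 were called in edgeR, while 1 had an unadjusted p-value under 0.05 and 1 was called by DESeq2. It was Mpc2 in both cases, named after its values were seen, with 523 ± 20.6 (SD, n = 5) normalized counts on the control diet and 595 ± 19.1 on the ketogenic diet (log2 fold change 0.19, adjusted p = 0.101 in edgeR). Dld, the shared E3 subunit, had a log2 fold change of 0.0027 (adjusted p = 0.979 in edgeR). It used up to 55.2% of its possible read start positions, so that little is read from this flat value. That of Lias, which makes lipoic acid, was 0.05 (adjusted p = 0.760 in edgeR).

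The list of other fates and sources of pyruvate gave 0 calls among 9 tested genes in edgeR and none in DESeq2, with 3 unadjusted p-values under 0.05. Ldha, the lactate dehydrogenase subunit that favours lactate, had 2282 ± 86.5 normalized counts (SD, n = 5) on the control diet and 2019 ± 166 on the ketogenic diet. Of the 5 mice on the ketogenic diet, 4 lay below every control mouse, and mouse 2, at 2309, lay among the controls. Its log2 fold change was −0.18 (adjusted p = 0.117 in edgeR), with 0.0639 in DESeq2. Over the fits that left out a mouse the adjusted p-value in edgeR lay between 0.156 and 0.244, except without mouse 2 on the ketogenic diet, where it was 0.0127 (log2 fold change −0.23) and calls over all genes rose to 492. Pkm, pyruvate kinase, had a log2 fold change of −0.08 (adjusted p = 0.314 in edgeR), on raw counts of 2422 to 2506 that ranged less than the library sizes, and Ldhb one of 0.01 (adjusted p = 0.919).

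Sister complexes that act on other 2-oxoacids and share the E3 subunit also gave 0 calls in edgeR and in DESeq2, among 7 tested of 9 genes, with 1 unadjusted p-value under 0.05. Ogdhl and Dhtkd1 had too few reads to be tested. Ogdh and Dlst, of the complex in the tricarboxylic acid cycle, had log2 fold changes of −0.01 (adjusted p = 0.923 in edgeR) and 0.03 (adjusted p = 0.722). The raw counts of Ogdh ranged less than the library sizes, and Dlst used up to 47.7% of its possible read start positions. Bckdk, the kinase of the branched-chain complex and a relative of the Pdk genes, had 2063 ± 103 (SD, n = 5) and 2206 ± 74.8 normalized counts on the control and the ketogenic diet (log2 fold change 0.10, adjusted p = 0.241 in edgeR).

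Of 11 genes for factors known to act on the Pdk4 gene, 11 were tested and 0 were called in edgeR, while 4 had an unadjusted p-value under 0.05 and 1 was called by DESeq2. Nr3c1, the glucocorticoid receptor, had 3198, 3134, 3079.5, 3080.3 and 3053 normalized counts on the control diet and 3522, 3248, 3451, 3423 and 3664 on the ketogenic diet, with no overlap. Its log2 fold change was 0.16 (standard error 0.0342), and its adjusted p-value of 0.0504 in edgeR lay at the threshold, with 0.00385 in DESeq2. Pparg had 1489 ± 187 (SD, n = 5) and 1792 ± 323 normalized counts (log2 fold change 0.27, adjusted p = 0.259 in edgeR), and Foxo1 had a log2 fold change of 0.05 (adjusted p = 0.621). Ppargc1a and Ppara were named after their values were seen. Ppargc1a, with 55 to 119 reads per mouse, had a log2 fold change of 0.52 (adjusted p = 0.112 in edgeR). For it, 4 mice on the ketogenic diet lay above the highest control mouse. Ppara, which had 8 to 28 reads per mouse, had a log2 fold change of 0.72 (adjusted p = 0.207 in edgeR).

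Pdk4 is also a known target of the PPAR factors, a family of fatty acid sensing receptors. Of 15 other known targets, 14 were tested, and 8 were called higher and 0 lower, against the 0.809% of all tested genes that were called higher. Their median log2 fold change was 0.38, against −0.01 over all tested genes. Since this list too was chosen with earlier results of these data known, nothing is read from the comparison with all genes.

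Angptl4, an inhibitor of lipoprotein lipase, had 993, 1881, 1976, 1651 and 2273 on the control diet and 3710.0, 3870.4, 3624, 3647 and 3571 on the ketogenic diet. Every mouse on the ketogenic diet lay above the controls, of which mouse 1 was the lowest, and the log2 fold change was 1.07 (adjusted p = 0.00885 in edgeR). Ucp3, a mitochondrial carrier, rose by 2.21 on the log2 scale on 5 to 86 reads per mouse (adjusted p = 0.0178 in edgeR). Plin2, a coat protein of lipid droplets, rose from 2303 ± 56.9 (SD, n = 5) to 2897 ± 98.5 normalized counts (log2 fold change 0.33, adjusted p = 0.00120 in edgeR).

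Also called were Fabp3, a fatty acid binding protein (log2 fold change 0.57, adjusted p = 0.0204 in edgeR), Acadl, a dehydrogenase of beta-oxidation (0.52, adjusted p = 0.0393), Slc25a20, the carnitine carrier (0.43, adjusted p = 0.0299), and Acot2, a thioesterase (0.27, adjusted p = 0.0375). The abundant Cpt1a (0.27, adjusted p = 0.112 in edgeR), Fabp4 (0.14, adjusted p = 0.300) and Hadha (0.09, adjusted p = 0.113) did not pass. Cpt1a and Fabp4 used up to 53.5% and 62.3% of their possible read start positions. DESeq2 called 9 targets, the 8 and Cpt1a (adjusted p = 0.0244), with every mouse on the ketogenic diet above the controls for Cpt1a. When each mouse was left out in turn, Angptl4, Ucp3 and Plin2 were called each time. Fabp3 lost its call in 2 of the 10 fits, Slc25a20 in 5, Acadl in 8 and Acot2 in 8, so that 4 targets were called without control mouse 3 and 5 without mouse 3, 4 or 5 on the ketogenic diet. The cardiomyocyte markers also had 10 of 10 log2 fold changes above 0, and whether they followed this list from mouse to mouse was not tested. With the cardiomyocyte score as a covariate, 2 of the 8 were still called, Plin2 among them, and the log2 fold changes of the called targets named here lay between 0.27 for Acot2 and 1.88 for Ucp3.

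**Figure D5:**
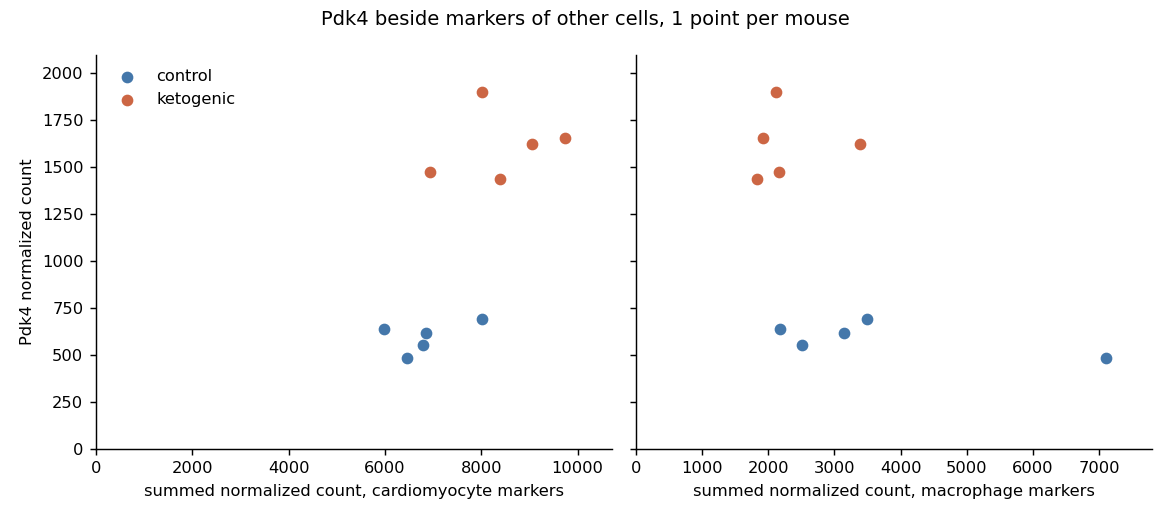
Normalized count of Pdk4 (vertical axis) against the summed normalized counts of 10 cardiomyocyte markers (left) and 6 macrophage markers (right), 1 point per mouse, control diet in blue and ketogenic diet in orange. The diets overlap on both horizontal axes and not on the vertical one, and 1 control mouse stands at a macrophage sum of 7099.

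Without control mouse 1, the mouse with the high macrophage markers and the lowest Pdk4, the log2 fold change of Pdk4 was 1.37, and over all fits that left out a mouse it lay between 1.37 and 1.5.

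The genes whose log2 CPM, the count scaled to library depth, followed that of Pdk4 most closely over the 10 mice were sought among the 10872 whose mean count reached 100. They were Lpcat3, a lysophospholipid acyltransferase (Pearson r = 0.975), Btnl9, a butyrophilin-like surface protein of capillary ECs (0.974), Gm16046 (0.968), Aldh9a1, an aldehyde dehydrogenase of carnitine synthesis (0.962), and Tmigd1, a membrane protein with immunoglobulin domains (0.962). The 10 points share the split between the diets, so that a gene that differs between them in the same direction has a high value, and the correlations are given as a description. Lpcat3 lay between 1214 and 1285 normalized counts on the control diet and between 1401 and 1502 on the ketogenic diet. Btnl9 lay between 3519.8 and 3882 and between 4914 and 5403 in the same order. Their differences were smaller than that of Pdk4, with log2 fold changes of 0.24 for Lpcat3 and 0.47 for Btnl9 against 1.44.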

How the data were processed

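RNA of CD31+ heart cells from 5 mice per diet was read by the authors in single-read mode. The submitters' processing notes name bcl2fastq 2.17.1.14, STAR 2.3, HTSeq 0.6.0 and mm10. The authors deposited raw counts of reads per gene, and RPKM values, the same counts divided by gene length and counted reads. The strand setting and any removal of duplicate reads are not given in the sources used here. Among 4394 genes with 1000 or more reads in a mouse, the highest had 2.10 reads per base of gene and 126 exceeded 1.5, where 2 stands for 1 read at each start position on each strand. In the group the largest use of possible start positions was 38.6%, for Pdhb, and it was 24.9% for Pdk4.

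Genes with enough reads for filterByExpr were compared between the diets in edgeR 4.0.16 (R 4.3.3) with TMM factors, a quasi-likelihood F-test and Benjamini-Hochberg adjustment over all 15949 tested genes, with 0.05 as threshold. The script was tested on simulated data. The members of the group, the related lists and the marker lists were chosen with earlier results of these data known. Besides the 10 genes, the text names every called gene and the 3 most abundant genes of each related list, the 5 genes most correlated with Pdk4, and the markers needed to state a range. A few genes within this rule are not reported here. Any other gene is named as chosen after its values were seen. Positions are from GENCODE M21, in which 37902 identifiers had the same version and 46488 matched without it, Pdp2 and Pdhb among the latter. Each mouse is a separate sample in the labels, and p-values measure the spread between these mice.

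Alternatives were other scaling (size factors of DESeq2, upper quartile, library size alone), no filter, a minimum of 10 counts in each mouse, the DESeq2 1.42.0 test, limma 3.58.1 on log2(RPKM + 1) and log2(RPKM + 0.1), the replicate number as a block, a covariate for the cardiomyocyte score (the mean z-score of its markers), each mouse left out in turn, and counts in place of RPKM. A correction for start positions, the length of the principal transcript and the comparison of raw count ranges with library sizes were chosen after seeing the data.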

Additional observations from a re-analysis of the deposited data

Results flagged for a closer look

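In 4 of 72 groups of 5 mice, the mouse at the edge lay apart from the other mice of its diet, with a gap to its nearest neighbour, divided by the whole range, above Dixon's critical ratio of 0.71. Chance gives about 1 in 20, or 3.6 of the 72. For Pdp2, the normalized count of mouse 4 on the ketogenic diet was lowest, 1054 against 1108 for the next mouse (ratio 0.738). Mouse 3 on the ketogenic diet had the highest count of Pdha1, 2580.1 against 2370.3 (ratio 0.721), and of Lias, 1089 against 949 (ratio 0.727). Mouse 2 on the ketogenic diet had the highest count of Ldha, 2309 against 1985 (ratio 0.795).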

How the results depend on the processing

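Pdk4 kept a log2 fold change between 1.34 and 1.54 over the 21 alternatives, the highest with start positions corrected. The median log2 fold change of the group stayed above 0, from 0.03 to 0.10. DESeq2 called 2 genes of the group, Pdk2 and Pdk4, and nothing is read from this, since the genes were chosen with this contrast known. Over all genes the count of calls, 213, was 795 with DESeq2 (446 higher), 113 with the replicate block, 26 with the cardiomyocyte score as a covariate, and 86 to 492 with a mouse left out, the highest without mouse 2 on the ketogenic diet and the lowest without control mouse 2. The causes were not tested. Of these calls 211, 90 and 19 were among the 213 with DESeq2, the block and the covariate. The 8 pathway genes called became 4 with the replicate block (Angptl4, Plin2 and Ucp3 among them), 2 with the covariate and 4 to 10 with a mouse left out. The replicate numbers were not taken to pair the mice, since the correlations of same-numbered mice lay between −0.13 and 0.09, and 0 of the 5 numbers had its highest correlation with its own number. The authors describe the control mice as littermates, but the sample labels used here name no litter, so that shared litters could not enter a fit. With the principal transcript length the mean log2 ratio over the 10 mice changed sign for Pdk2 over Pdk4, to 0.14 with either gene higher in 5 mice, and for Pdha1 over Pdhb, to 0.23. The ratio of Pdk1 over Pdk3 was −7.76e-05 without control mouse 3. Read numbers were lowest for Pdk3, with at most 74 in a mouse, and Ppara, with at most 28, and the spread between mice exceeded counting error for Pdk3 on the ketogenic diet and for Ppara on the control diet.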
